A study of Mus musculus with 43 samples.

Results

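Astrocytes secrete proteins that tell neurons when and where to build synapses, and 10 genes for such proteins were followed here out of 55416 genes counted in each library. They were taken by name and comprised Sparcl1, Sparc, the thrombospondin genes Thbs1, Thbs2, Thbs3 and Thbs4, the glypican genes Gpc4, Gpc5 and Gpc6, and Chrdl1. The counts came from glia of the cortex of mice aged 3 months, purified from one brain after another by immunopanning, in which cells bind to dishes coated with an antibody against a surface protein. Microglia were captured first with anti-CD45, which also binds peripheral macrophages, then oligodendrocyte precursor cells (OPCs) with anti-PDGFRα, oligodendrocytes with an antibody from the GalC hybridoma and astrocytes with anti-HepaCAM. The study asked whether the transcriptomes of these cells differ in mice without lymphocytes.

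The Rag2-/- mice carried the B6.Cg-Rag2tm1.1Cgn allele on both chromosomes from conception and lack mature T and B cells in every tissue, so the model does not separate a lack of lymphocytes in the brain from one elsewhere. Controls were littermates on the same C57BL/6J background, Rag2+/- in pairs 1, 2, 3 and 5 and Rag2+/+ in pairs 4 and 6, and both were treated as immunocompetent. Astrocytes and microglia each gave 6 control libraries (4 male, 2 female) and 6 Rag2-/- libraries (3 male, 3 female). OPCs gave 6 control libraries (4 male, 2 female) and 5 Rag2-/- libraries (3 male, 2 female), and oligodendrocytes gave 4 control libraries (3 male, 1 female) and 4 Rag2-/- libraries (2 male, 2 female). Libraries of a group were separate mice, and a library is named below by its littermate pair. Pair 6 joined a male control to a female Rag2-/- mouse, and the mice of every other pair shared their sex. All libraries of a cell type were sequenced on the same lane, so a difference between cell types cannot be told apart from one between lanes. In these bulk samples, fewer cells of a type and less RNA per cell cannot be told apart either.

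Between 6499417 and 23118497 read pairs per library fell on genes. Each panned population carried the markers of its label, with the summed level of 9 astrocyte markers (such as Aqp4 and Gfap) at 17053 to 22015 CPM (a gene's count scaled to a common total of gene counts) in astrocyte libraries, 3172 to 8461 in OPC, 1102 to 2064 in oligodendrocyte and 193 to 345 in microglia libraries. None of the 9 was at 0 throughout any group. The 8 oligodendrocyte markers summed to 3909 to 5920 CPM in astrocyte libraries, against 16268 to 23329 in oligodendrocyte libraries. Mitochondrial genes took 45.8% to 60.1% of the counts in oligodendrocytes, 22.4% to 45.1% in astrocytes and OPCs, and 6.75% to 11.7% in microglia. A CPM is therefore a share of a differently composed total in each cell type. Folds were scaled instead by TMM, a trimmed mean that keeps most genes level between libraries.

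Sparcl1, also called hevin, is a secreted matrix protein that bridges adhesion proteins of the presynaptic and postsynaptic membranes and promotes excitatory synapses, and its relative Sparc counteracts it. Thrombospondins are large multimeric matrix proteins that induce synapses through the neuronal calcium channel subunit encoded by Cacna2d1. Glypicans are heparan sulfate proteoglycans held at the membrane and released from it. Gpc4 and Gpc6 bring glutamate receptors to young synapses, Gpc5 belongs to the same family, and Chrdl1 binds bone morphogenetic proteins (BMPs) and drives the switch to mature glutamate receptors.

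In GRCm39, with GENCODE M39 gene bounds, Sparcl1 (ENSMUSG00000029309) lies at chr5:104226288-104262065 and Sparc (ENSMUSG00000018593) at chr11:55285317-55314067, both on the minus strand. Thbs1 (ENSMUSG00000040152) lies at chr2:117941974-117957616 on the plus strand, Thbs2 (ENSMUSG00000023885) at chr17:14885761-14914528 on the minus strand, Thbs3 (ENSMUSG00000028047) at chr3:89122461-89134144 on the plus strand and Thbs4 (ENSMUSG00000021702) at chr13:92888095-92931501 on the minus strand. Gpc4 (ENSMUSG00000031119) lies at chrX:51139255-51254262 on the minus strand, while Gpc5 (ENSMUSG00000022112) at chr14:115329647-116762591 and Gpc6 (ENSMUSG00000058571) at chr14:117162727-118216940 are neighbours on the plus strand. Chrdl1 (ENSMUSG00000031283) lies at chrX:142068670-142177258 on the minus strand. Of the exonic bases, 11.1% of Thbs1, 7.72% of Sparcl1, 7.11% of Thbs3 and 2.26% of Gpc5 are shared with a gene on the other strand. The strand setting of the counting is not given in the sources used here, so the counts of those 4 genes are uncertain to that extent.

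The promoters of Sparc and Thbs4 are shown because their highest levels lay in different cell types, Sparc being highest in microglia and Thbs4 in control mice being at most 1.91% of its astrocyte level elsewhere. Each runs from 250 bases before to 50 bases after the start of the gene in a RefSeq table built on GRCm38.p6, which held 6 of the 10 genes, and was placed in GRCm39 by an exact match. The Sparc window is chr11:55310857-55311156 and the Thbs4 window chr13:92931277-92931576, both read on the minus strand. The Sparc window lies wholly inside the GENCODE bounds given above, which start at 55314067 on that strand. It therefore surrounds the RefSeq start and not the GENCODE start, while the Thbs4 window includes the GENCODE start at 92931501. Capitals mark matches on either strand to 3 motifs: TATAAA, the TATA box, GAGGAA, the core bound by the myeloid factor PU.1, and TTGGC, the half-site of the nuclear factor I family.
Sparc: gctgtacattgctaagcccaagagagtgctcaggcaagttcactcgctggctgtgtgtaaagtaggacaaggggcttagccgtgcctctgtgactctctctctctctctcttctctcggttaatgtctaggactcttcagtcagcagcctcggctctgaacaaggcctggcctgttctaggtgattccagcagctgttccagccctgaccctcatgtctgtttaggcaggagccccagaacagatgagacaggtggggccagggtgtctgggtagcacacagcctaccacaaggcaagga
Thbs4: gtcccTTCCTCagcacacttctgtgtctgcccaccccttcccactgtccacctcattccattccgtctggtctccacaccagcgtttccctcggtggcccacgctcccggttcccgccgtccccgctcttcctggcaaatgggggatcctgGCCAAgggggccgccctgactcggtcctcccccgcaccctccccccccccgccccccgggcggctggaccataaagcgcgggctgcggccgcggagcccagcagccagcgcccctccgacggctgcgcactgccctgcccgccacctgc
The Sparc window held none of the 3 motifs, with 55.3% G and C and 4 CpG. The Thbs4 window held 72% G and C, 24 CpG, 1 match to GAGGAA and 1 to TTGGC, both on the opposite strand (written here as TTCCTC and GCCAA). Over 32851 promoters of the same length, 28.3% held GAGGAA, 46.7% held TTGGC and 13.6% held TATAAA, so both matches are common ones.

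By mean CPM in control mice, Sparcl1, Thbs4, Gpc4, Gpc5, Gpc6 and Chrdl1 were highest in astrocytes, Sparc and Thbs1 in microglia, Thbs3 in OPCs and Thbs2 in oligodendrocytes. The places of Thbs1 over OPCs, Thbs3 over astrocytes and Thbs2 over OPCs did not pass the tests given with each gene. Per kilobase of exon, the order in control astrocytes was Sparcl1 (497 CPM per kb), Sparc (43.2), Gpc5 (28.7), Chrdl1 (15.5), Gpc6 (9.54), Thbs4 (4.68), Gpc4 (3.86), Thbs3 (1.89), Thbs1 (0.352) and Thbs2 (0.141). In control microglia the first place went to Sparc (693 CPM per kb), followed by Sparcl1 (7.03) and Thbs1 (1.96). Sparcl1 and Sparc together took 87.5% to 99.6% of the summed CPM of the 10 genes in every library. The median ratio of Sparcl1 to Sparc counts was 20.5 in control and 19.7 in Rag2-/- astrocytes, 6.29 and 6.72 in OPCs, 1.30 and 1.49 in oligodendrocytes, and 0.0176 and 0.0175 in microglia.

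**Figure D1:**
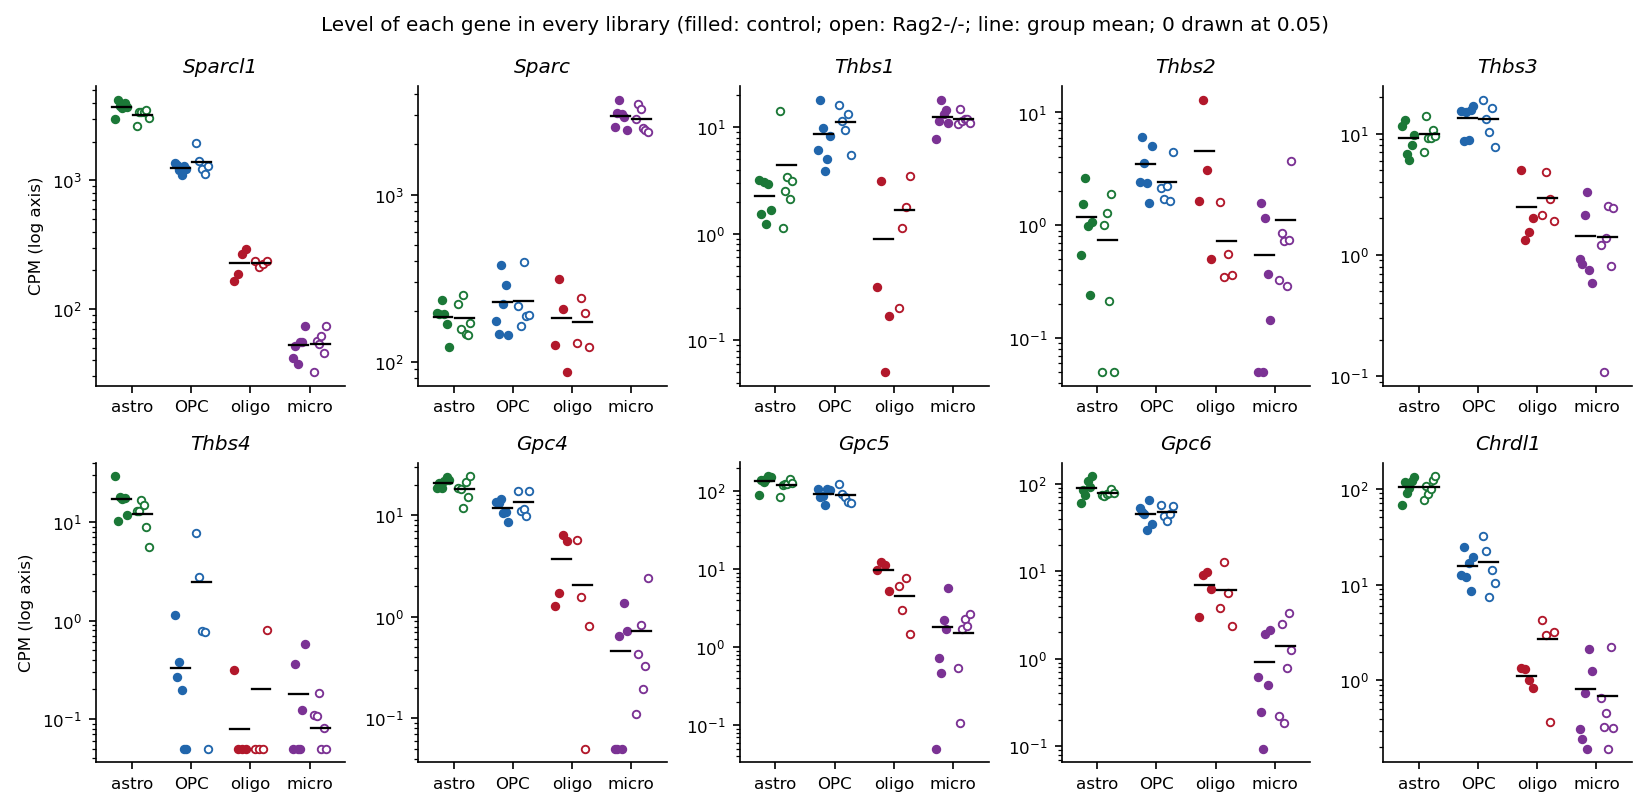
Level of the 10 genes in each of the 43 libraries, in CPM on a log axis, by cell type. Filled points are control mice, open points Rag2-/- mice, lines are group means, and libraries with no count are drawn at the foot of the axis. Sparcl1 stepped down from astrocytes to microglia with no overlap between cell types, and Sparc stood at 2389 CPM or more in every microglia library and at 398 CPM or less in all others.

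Sparcl1 was the most abundant member in astrocytes and graded across the other glia. In control astrocytes it stood at 2974, 4231, 3763, 3662, 3974 and 3706 CPM in pairs 1 to 6 (mean 3718 ± 421 SD, n = 6). In control OPCs it stood at 1242 ± 93.05 CPM (range 1092 to 1353, n = 6), in oligodendrocytes at 165, 187, 266 and 292 CPM (mean 227 ± 60.8, n = 4), and in microglia at 52.6 ± 12.6 CPM (range 37.6 to 73.5, n = 6). No 2 cell types overlapped, in either genotype. The log2 difference of astrocytes over OPCs was 2.05 ± 0.189 (SE) in control mice and 1.70 ± 0.163 in Rag2-/- mice (edgeR adjusted p = 1.22e-08 and 8.45e-08). Over oligodendrocytes it was 3.35 ± 0.236 and 3.28 ± 0.192, and over microglia 6.37 ± 0.231 and 6.25 ± 0.187, an 82.7-fold and 76.0-fold difference (largest adjusted p of these, 3.19e-10). OPCs exceeded oligodendrocytes by 1.30 ± 0.213 and 1.58 ± 0.181 (adjusted p = 7.13e-05 and 9.49e-07).

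Markers of one cell type were also counted in libraries of the others, so each astrocyte-enriched member was set beside the 9 astrocyte markers. In control OPCs the markers stood at 8.39% to 46.4% of their level in astrocytes, with a median of 12.3%, and the highest was Hepacam, the gene of the panning antigen. Sparcl1 stood at 33.4% there, Gpc4 at 56.5%, Gpc5 at 68.5% and Gpc6 at 50.8%, while Chrdl1 stood at 14.9% and Thbs4 at 1.91%. Gpc4, Gpc5 and Gpc6 thus lay above all 9 markers, Sparcl1 above 8 of them, Chrdl1 near their median and Thbs4 below all 9. In Rag2-/- OPCs the markers stood at 11.6% to 53.3% with a median of 20.6%, Sparcl1 at 43.1%, Gpc4 and Gpc5 at 73.5%, Gpc6 at 61.1%, Chrdl1 at 16.4% and Thbs4 at 20.3%. In control oligodendrocytes the markers stood at 1.95% to 26.03% with a median of 3.19%, against 6.12% for Sparcl1, 17.8% for Gpc4, 7.13% for Gpc5, 7.81% for Gpc6 and 1.07% for Chrdl1. With TMM scaling the markers there stood at 3.24% to 41.2% with a median of 5.49%, against 10.1% for Sparcl1, 30.3% for Gpc4, 11.3% for Gpc5, 12.6% for Gpc6 and 1.72% for Chrdl1. In control microglia the markers stood at 0.487% to 4.34% with a median of 0.924%. The members there stood at 1.41% for Sparcl1, 2.19% for Gpc4, 1.33% for Gpc5, 1.02% for Gpc6, 0.770% for Chrdl1 and 1.03% for Thbs4, all within the range of the markers. The part of RNA from astrocytes in these levels was not tested.

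**Figure D2:**
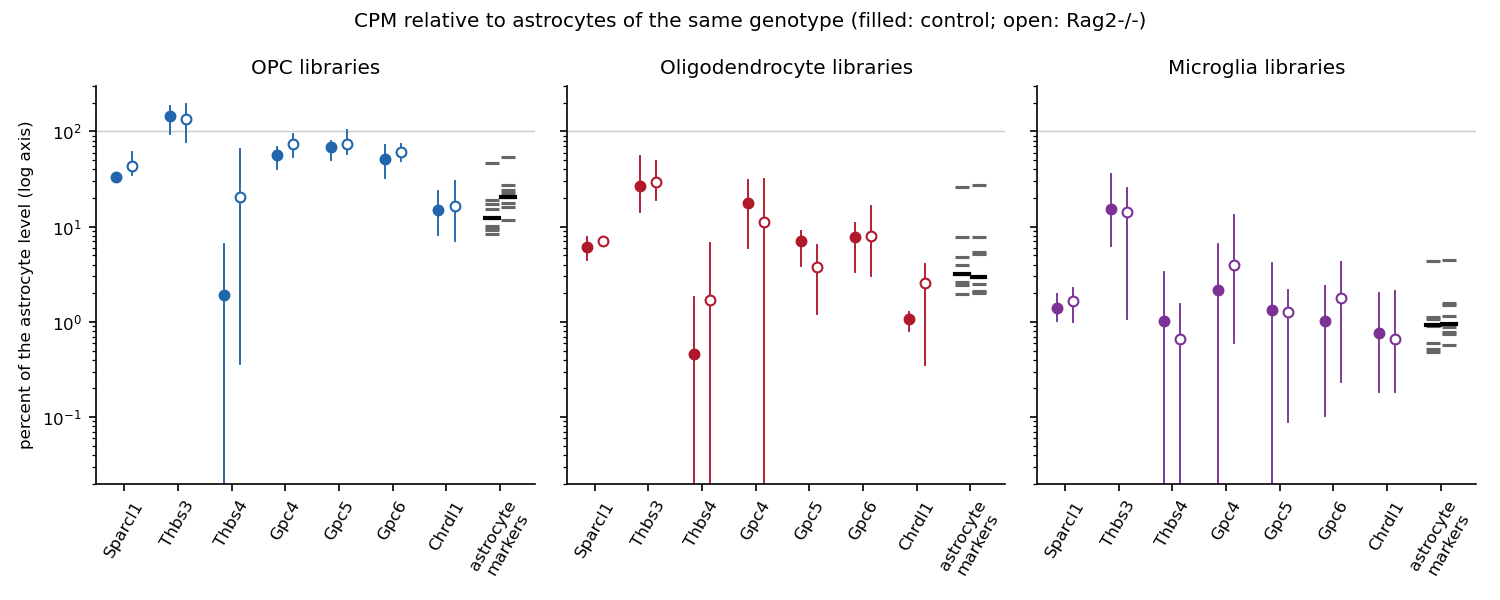
Level of 7 members in OPCs, oligodendrocytes and microglia as a percent of the mean astrocyte level of the same genotype, on a log axis. Points are means, bars run from the lowest to the highest library, grey dashes are the 9 astrocyte markers and black dashes their median. In OPCs, Thbs3 and the 3 glypicans lie above the markers and Thbs4 in control mice lies below them.

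The glypicans followed Sparcl1 in order by CPM, with astrocyte and OPC libraries above those of oligodendrocytes and microglia. Between OPCs and oligodendrocytes, however, Gpc4 was not called in either genotype. With 1 library left out, that log2 difference in control mice ran from 0.25 to 1.02 (edgeR adjusted p = 0.220 to 0.782). Scaled to total gene counts it was called, at 1.70 in control and 2.71 in Rag2-/- mice (edgeR adjusted p = 0.0141 and 0.00527). Gpc5 stood at 90.8, 141, 133, 143, 157 and 152 CPM in control astrocytes of pairs 1 to 6, at 67.8 to 109 CPM in control OPCs (median 95.9), at 9.80, 12.2, 11.4 and 5.27 CPM in control oligodendrocytes and at 0 to 5.69 CPM in control microglia (median 1.23). Astrocyte and OPC libraries overlapped in Gpc5, and both stayed clear of oligodendrocytes and microglia. Gpc6 stood at 59.9 to 122 CPM in control astrocytes (median 87.7), 29.3 to 64.9 in OPCs (median 46.4), 3.00, 8.94, 9.88 and 6.19 in oligodendrocytes and 0.0930 to 2.12 in microglia (median 0.556). Gpc4, the lowest glypican, stood at 18.4 to 23.6 CPM in control astrocytes (median 21.3), 8.51 to 14.5 in OPCs (median 11.9), 1.26, 1.69, 6.44 and 5.52 in oligodendrocytes and at 0 to 1.37 in microglia (median 0.326). Against microglia all 3 were far higher in astrocytes, with log2 differences in control mice of 6.34 ± 0.475 for Gpc5, 6.72 ± 0.464 for Gpc6 and 5.70 ± 0.626 for Gpc4 (edgeR adjusted p at most 3.06e-08). Against oligodendrocytes they were 3.22 ± 0.473, 3.06 ± 0.443 and 1.79 ± 0.583 (adjusted p = 1.02e-05, 8.28e-06 and 0.0178), and the last was lost without the oligodendrocyte library of control pair 1 or 3 (adjusted p = 0.0535 to 0.0570). The same differences in Rag2-/- mice were 4.18 ± 0.446, 3.19 ± 0.471 and 2.69 ± 0.748, all past the test.

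Against OPCs the glypican differences were small. In control mice they were 1.46 ± 0.349 for Gpc6 (edgeR adjusted p = 0.0023), 1.02 ± 0.366 for Gpc5 (0.0367) and 1.29 ± 0.487 for Gpc4 (0.0481). With the mouse that gave the libraries as a block, Gpc4 was no longer called (edgeR adjusted p = 0.0736). It was also lost on leaving out any 1 astrocyte or OPC library or the microglia of pair 3 (0.0513 to 0.0996). Gpc5 was not called without the astrocytes of any 1 of pairs 2 to 6 or the OPCs of any 1 of pairs 2 to 5 (0.0583 to 0.0848). Gpc6 in Rag2-/- mice passed at 1.18 ± 0.388 (adjusted p = 0.0273), which the block took to 0.0600 and which was lost without the astrocytes of pair 1, 3 or 4 or the OPCs of pair 2, 3 or 6 (0.0506 to 0.0755). Gpc5 at 0.93 ± 0.345 had an adjusted p of 0.0503, and was called by DESeq2 (0.0400), with DESeq2 size factors (0.0438), with mitochondrial genes left out (0.0470) and without a filter (0.0032). It also fell below the threshold on leaving out any 1 of 7 libraries (0.0212 to 0.0483), namely the OPCs of pair 1, the microglia of pair 1, 2 or 6 or the oligodendrocytes of pair 3, 5 or 6. Gpc4 stood at 0.96 ± 0.618 (0.282). With libraries scaled to their total gene counts, Gpc4 and Gpc5 lost the call in control mice (adjusted p = 0.176 and 0.274) and Gpc6 in Rag2-/- mice (0.208).

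Chrdl1, the BMP-binding protein, was among the members with the largest astrocyte excess. It stood at 67.6, 117, 89.1, 102, 119.7 and 133 CPM in control astrocytes of pairs 1 to 6, at 12.5, 24.9, 12.1, 16.9, 8.47 and 19.1 CPM in OPCs, at 1.34, 1.32, 0.999 and 0.836 CPM in oligodendrocytes and at 0.194 to 2.11 CPM in microglia (median 0.526). Astrocyte libraries lay clear of every other cell type. The log2 difference of astrocytes over OPCs was 3.17 ± 0.329 in control and 3.09 ± 0.459 in Rag2-/- mice, over oligodendrocytes 5.89 ± 0.472 and 4.69 ± 0.559, and over microglia 7.21 ± 0.421 and 7.49 ± 0.553 (edgeR adjusted p at most 2.3e-05). OPCs exceeded oligodendrocytes by 2.71 ± 0.426 in control mice (adjusted p = 4.26e-05). That difference in Rag2-/- mice was 1.60 ± 0.505 (0.0216), and it was no longer called without the OPC library of pair 1 (0.0700), which also had the highest astrocyte marker sum of all OPC libraries, 8461 CPM.

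Thbs4 was the thrombospondin with the largest astrocyte excess. It stood at 29.2, 10.3, 17.8, 17.1, 17.4 and 11.9 CPM in control astrocytes of pairs 1 to 6 and at 13.05, 13.1, 16.6, 14.9, 8.89 and 5.58 CPM in Rag2-/- astrocytes. Control OPCs held 14, 2, 4, 2, 0 and 0 counts, control oligodendrocytes 4, 0, 0 and 0, and control microglia at most 8 counts in any library and 12 in all 6. Every control astrocyte library thus lay above every other control library, with log2 differences of 6.15 ± 0.814 over OPCs, 7.04 ± 1.099 over oligodendrocytes and 6.63 ± 0.857 over microglia (edgeR adjusted p = 2.56e-06, 2.22e-05 and 4.14e-07). The sizes of these differences rest on a few counts in the lower group: without the oligodendrocyte library of control pair 1 the other 3 held none, and the difference became 10.6. In Rag2-/- mice astrocytes exceeded OPCs by 2.91 ± 0.89 (adjusted p = 0.0183), and by 4.01 without the OPC library of pair 1. Rag2-/- microglia held at most 2 counts in any library and 5 in all 6. Every library of that group lay under the floor of 3 counts, so no fold of astrocytes over it is given, though its call is counted below. In control mice 4 OPC, 3 oligodendrocyte and 5 microglia libraries also lay at or under that floor.

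Thbs1, the thrombospondin best known for early synapse formation, was scarce in adult astrocytes and highest in microglia. Control microglia held 7.69, 11.5, 17.95, 13.3, 14.4 and 10.9 CPM, control OPCs 6.17, 18.2, 9.95, 3.87, 5.02 and 8.24, control astrocytes 3.20, 1.53, 3.07, 1.25, 2.92 and 1.67, and control oligodendrocytes 0.316, 3.11, 0 and 0.167. Control astrocytes overlapped neither microglia nor OPCs. They lay below microglia by 2.19 ± 0.563 on the log2 scale (fold 4.57, edgeR adjusted p = 0.00171) and showed a difference of -1.44 ± 0.556 from OPCs that did not pass (0.0525). DESeq2 called that second difference (0.0225), as did edgeR on leaving out any 1 of 7 libraries, the astrocytes of pair 1, the OPCs of pair 4 or 5 or any 1 oligodendrocyte library (0.00892 to 0.0466). In Rag2-/- mice the astrocyte library of pair 1 held 14.4 CPM and the other 5 held 1.13 to 3.43. With it, astrocytes differed from microglia by -1.06 ± 0.589 (adjusted p = 0.126) and from OPCs by -0.74 ± 0.593 (0.402), and without it by -1.96 (0.00194) and -1.74 (0.0162). OPCs and microglia did not differ by the test in either genotype (-0.75 ± 0.533 and -0.32 ± 0.599).

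Oligodendrocytes lay below microglia in Thbs1 by 3.13 ± 0.707 in control mice and 1.83 ± 0.698 in Rag2-/- mice (edgeR adjusted p = 0.000578 and 0.0286). The second was lost without the microglia of pair 2 or the oligodendrocytes of pair 1, 3 or 5 (0.0533 to 0.1002). In control mice the oligodendrocytes of pair 3 held 33 of the 39 Thbs1 counts of that group, and without that library astrocytes exceeded oligodendrocytes in Thbs1 by 2.94 (adjusted p = 0.00212) where the full set gave 0.94 ± 0.674 (0.284). The same library held the highest Thbs2, 12.99 CPM, against 1.66, 3.11 and 0.502 in the other 3.

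Thbs3 was shared by OPCs and astrocytes, and Thbs2 was low in every cell type. Control OPCs held 15.4, 8.64, 15.1, 8.93, 15.7 and 17.02 CPM of Thbs3 and control astrocytes 11.7, 13.03, 6.78, 6.11, 8.14 and 9.71, with a log2 difference of -0.03 ± 0.387 (edgeR adjusted p = 0.971, 95% interval -0.83 to 0.77). Both exceeded microglia, which held 0.584 to 3.29 CPM, by 3.00 ± 0.429 and 3.03 ± 0.426 (adjusted p = 1.81e-06 and 1.5e-06). Oligodendrocytes, at 5.06, 1.32, 1.55 and 2.01 CPM, lay below astrocytes by 1.34 ± 0.462 (0.0253) and below OPCs by 1.36 ± 0.458 (0.0293). The first was lost without the astrocytes of pair 1 or 2 and the second without the OPCs of pair 1 or 6, and both without the oligodendrocytes of pair 3, 5 or 6 (up to 0.0926 and 0.0820). In Rag2-/- mice astrocytes exceeded oligodendrocytes in Thbs3 by 1.27 ± 0.46 (0.0326), which the mouse as a block took to 0.0741. That call was also lost without any 1 of 5 libraries, the astrocytes of pair 2 or 6 and the oligodendrocytes of pair 1, 5 or 6 (up to 0.107). Thbs2 stood at 1.57 to 6.11 CPM in control OPCs, 0.243 to 2.65 in astrocytes and 0 to 1.57 in microglia. The control oligodendrocyte mean of 4.57 CPM was 1.76 without pair 3, below the OPC mean of 3.52, and OPCs differed from oligodendrocytes by -1.28 (adjusted p = 0.261). Its difference between control astrocytes and oligodendrocytes, -2.38 ± 0.842 (0.0285), was -1.12 (0.341) without the oligodendrocytes of pair 3, and in Rag2-/- mice it was -0.76 ± 0.921 (0.54).

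Sparc, the matrix protein that counteracts Sparcl1, was a microglial transcript in these libraries. Control microglia held 2558, 3089, 3710.2, 3026, 2908 and 2434 CPM (mean 2954 ± 453) and Rag2-/- microglia 2849.9, 3509, 3246, 2521, 2451 and 2389 (2827 ± 462). Control astrocytes held 195, 192, 234, 193, 169 and 122 CPM, OPCs 176, 146, 382, 223, 288 and 145, and oligodendrocytes 126, 315, 206 and 86.5. Microglia stood apart from all others, while the other 3 cell types overlapped in both genotypes. The log2 difference of astrocytes minus microglia was -3.75 ± 0.259 in control and -3.63 ± 0.228 in Rag2-/- mice, that of OPCs -3.94 ± 0.261 and -3.84 ± 0.249, and that of oligodendrocytes -3.22 ± 0.298 and -3.20 ± 0.263 (edgeR adjusted p at most 2.56e-09).

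As a share of the microglial level, Sparc stood at 6.24% in control astrocytes, 7.67% in OPCs and 6.21% in oligodendrocytes (6.45%, 8.19% and 6.09% in Rag2-/- mice). The 8 microglia markers, such as Cx3cr1 and P2ry12, stood at 0.760% to 2.17% of their microglial level in control astrocytes, 4.09% to 6.54% in OPCs and 2.71% to 6.10% in oligodendrocytes. Sparc was above all 8 markers in astrocytes and OPCs. In control oligodendrocytes its share (6.21% ± 3.41 SD) and that of the highest marker, C1qa (6.10% ± 5.06), differed by less than the spread between libraries. With TMM scaling, Sparc in oligodendrocytes stood at 11.3% in both genotypes, and the markers at 4.83% to 10.9% in control and 3.81% to 11.2% in Rag2-/- mice. Within OPCs and oligodendrocytes, Sparc was highest where microglia markers were highest. The OPC libraries of pair 3 had a microglia marker sum of 991 CPM in the control and 970.1 CPM in the Rag2-/- mouse, against 199 to 517 in the other 9, and Sparc at 382 and 398 CPM, against 145 to 288. The oligodendrocyte libraries of pair 3 had sums of 776 and 666 CPM, against 144 to 359 in the other 6, and Sparc at 315 and 242 CPM, against 86.5 to 206. The 7 mural markers summed to 113 to 175 CPM in control astrocytes, 108 to 319 in OPCs, 8.78 to 67.0 in oligodendrocytes and 21.8 to 58.1 in microglia. In the same order, the 7 endothelial markers summed to 10.2 to 41.8, 27.3 to 78.4, 3.95 to 17.8 and 25.4 to 53.7 CPM. The 6 fibroblast markers summed to 9.92 to 23.4, 32.2 to 79.1, 1.88 to 11.1 and 4.47 to 11.9 CPM. The part of microglial, mural, endothelial or fibroblast RNA in these Sparc levels was not tested.

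**Figure D3:**
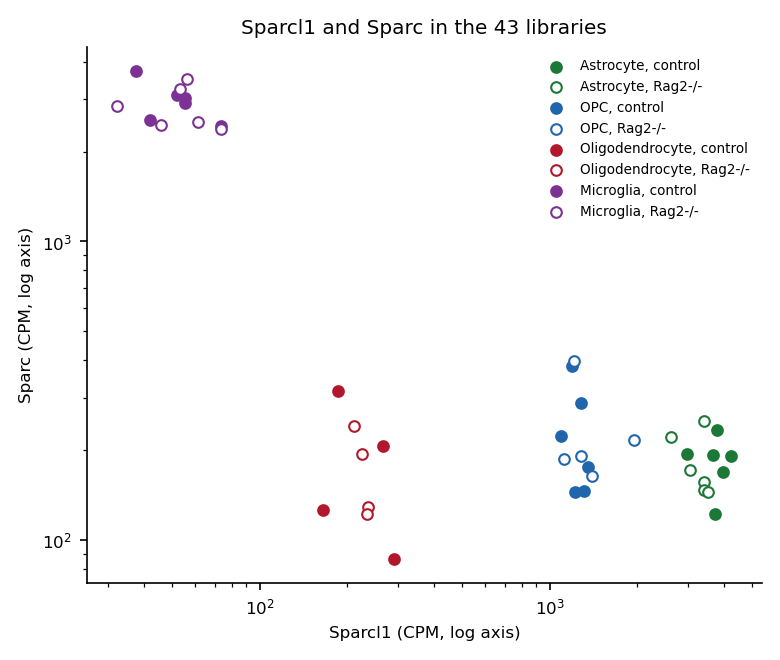
Sparcl1 against Sparc in each of the 43 libraries, both in CPM on log axes, coloured by cell type. Microglia sit at 2389 to 3710.2 CPM of Sparc and 32.3 to 73.8 CPM of Sparcl1, and astrocytes, OPCs and oligodendrocytes share a band of Sparc while stepping down in Sparcl1.

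The order of Sparc among astrocytes, OPCs and oligodendrocytes turned with scaling to total gene counts and held with the other scalings run. By TMM, OPCs differed from oligodendrocytes by -0.72 ± 0.257 in control mice (edgeR adjusted p = 0.0381) and -0.64 ± 0.24 in Rag2-/- mice (0.0502), and by total gene counts the differences turned to 0.31 (0.389) and 0.38. DESeq2, its size factors and leaving out mitochondrial genes kept the direction and called the Rag2-/- difference (-0.72, -0.72 and -0.65, adjusted p = 0.0322, 0.0331 and 0.0443). The control call was also lost without the oligodendrocytes of pair 3 or 5, the astrocytes of pair 1, 2, 4 or 5 or the OPCs of pair 1, 2 or 6 (0.0508 to 0.234). Astrocytes differed from OPCs by 0.19 ± 0.232 and 0.21 ± 0.216 and from oligodendrocytes by -0.53 ± 0.257 and -0.43 ± 0.228, none past the test, and these too changed sign with total gene counts.

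Counted over the 10 genes, 6 were called higher and 0 lower in control astrocytes than in OPCs, where 30.6% of all genes tested were called, 14.4% as higher and 16.2% as lower. In Rag2-/- mice the count was 4 and 0 (25.6% of all genes called, 11.7% higher and 13.9% lower). Against oligodendrocytes it was 7 higher and 1 lower in control mice (38.1% called, 18.7% higher and 19.4% lower) and 7 and 0 in Rag2-/- mice (39.6%, 20.4% and 19.2%). Against microglia it was 7 higher and 2 lower (61%, 32% and 29.1%) and 7 higher and 1 lower (60.1%, 31.7% and 28.4%). The median log2 difference of the 10 genes in control mice was 1.15 over OPCs, 2.43 over oligodendrocytes and 6.02 over microglia, beside -0.05, 0.04 and 0.09 for all genes tested.

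OPCs were higher than oligodendrocytes in 6 genes and lower in 1 in control mice, where 27.6% of all genes were called, 15.2% as higher and 12.4% as lower. The count in Rag2-/- mice was 4 and 0 (27.8%, 16.8% and 11%). OPCs were higher than microglia in 7 and lower in 1 in control mice (60.9%, 32.2% and 28.6%) and in Rag2-/- mice (59%, 32% and 27%). Oligodendrocytes were higher than microglia in 7 and lower in 2 in control mice (59.1%, 29.4% and 29.7%) and higher in 6 and lower in 2 in Rag2-/- mice (59%, 28.4% and 30.6%). With the mouse as a block the counts of astrocytes over OPCs were 5 and 3 in the 2 genotypes and the count over oligodendrocytes in Rag2-/- mice was 6.

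None of the 10 genes passed the test for genotype in any cell type. Of those past the filter on low counts, 9 in astrocytes, 9 in OPCs, 9 in oligodendrocytes and 5 in microglia, edgeR called 0 after adjustment, 0 had an unadjusted p under 0.05, and DESeq2 called 0. The shares of all genes tested with an unadjusted p under 0.05 were 2.87% in astrocytes, 4.02% in OPCs, 3.38% in oligodendrocytes and 2.9% in microglia. Of all genes tested, edgeR called 1 of 14725 in astrocytes (0.00679%), 1 of 16882 in OPCs (0.00592%), 1 of 15003 in microglia (0.00667%) and 0 of 13802 in oligodendrocytes (0%), where 467 had an unadjusted p under 0.05 and DESeq2 called 203. The libraries of the 2 genotypes overlapped for every member in every cell type. In astrocytes Sparcl1 stood at 2632, 3414, 3406, 3405, 3524 and 3042 CPM in Rag2-/- pairs 1 to 6, with a log2 difference from controls of -0.11 ± 0.0787 (95% interval -0.27 to 0.06, adjusted p = 1). It was lower in the Rag2-/- mouse in 6 of 6 pairs by CPM and in 5 of 6 after TMM scaling. In OPCs Sparcl1 stood at 1957, 1404, 1214, 1117 and 1286 CPM in Rag2-/- pairs 1, 2, 3, 4 and 6, higher than the control in 5 of 5 pairs, with a difference of 0.22 ± 0.106 (95% interval -0.0063 to 0.45, edgeR adjusted p = 1).

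Precision differed by gene and cell type. For Sparc the 95% interval of the log2 genotype difference was -0.23 to 0.50 in astrocytes and -0.29 to 0.23 in microglia. In astrocytes it was -0.33 to 0.15 for Gpc5, -0.37 to 0.21 for Gpc6 and -0.23 to 0.33 for Chrdl1. In oligodendrocytes, with 4 libraries a group and few counts, it was -4.72 to 0.02 for Thbs2, -2.51 to 0.31 for Gpc5 and -0.67 to 3.39 for Chrdl1. Thbs2 there stood at 1.61, 0.351, 0.558 and 0.367 CPM in Rag2-/- mice against 1.66, 12.99, 3.11 and 0.502 in controls (log2 difference -2.35 ± 1.08, edgeR adjusted p = 0.998). Thbs2 and Gpc5 were both lower in the Rag2-/- mouse in 4 of 4 oligodendrocyte pairs, by CPM and after TMM scaling, and Gpc5 differed by -1.10 ± 0.644 (edgeR adjusted p = 0.998). For Thbs2 the raw counts, Rag2-/- against control, were 24 against 21 in pair 1 and 5 against 6 in pair 6. The share of all genes with 1 direction in every pair was not counted, here or for the other pair counts given. The control library of pair 3 is the one that also stood apart in Thbs1. In astrocytes Thbs1 differed by 1.09 ± 0.529 (edgeR adjusted p = 1), with 1 Rag2-/- library at 14.4 CPM and the other 5 within 1.13 to 3.43. Thbs2 in astrocytes, Thbs4 in OPCs and oligodendrocytes, and Thbs2, Thbs4, Gpc4, Gpc6 and Chrdl1 in microglia did not pass the filter and were not tested with it.

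**Figure D4:**
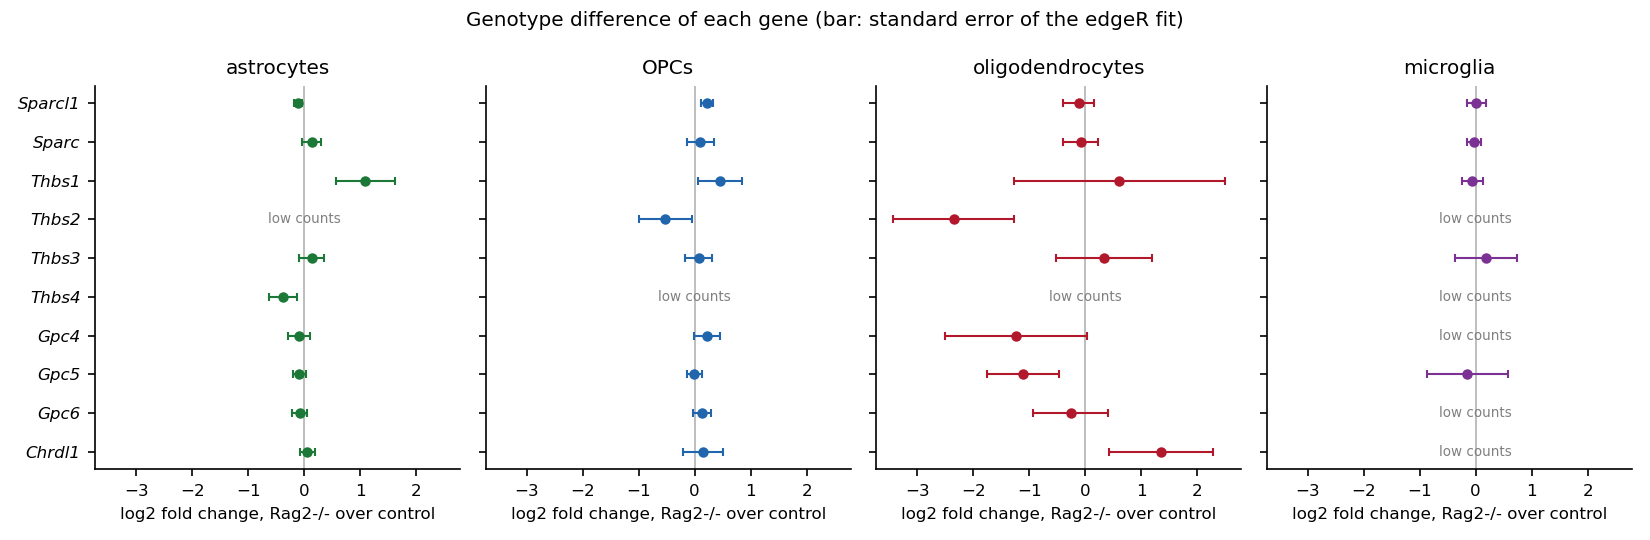
Log2 fold change of Rag2-/- over control mice for the 10 genes in each cell type, with bars of 1 standard error, from edgeR. Members that did not pass the filter are marked as low counts. Estimates for Sparcl1 lie within -0.11 to 0.22, and the widest bars belong to low genes in oligodendrocytes.

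Thbs4 in OPCs did not pass the filter and is given by its counts. The Rag2-/- OPC libraries of pairs 1, 2, 3, 4 and 6 held 101, 34, 11, 8 and 1 counts, and the control libraries of pairs 1 to 6 held 14, 2, 4, 2, 0 and 0. The Rag2-/- mouse was higher in 5 of 5 pairs, the groups overlapped, and without a filter the log2 difference was 2.95 (edgeR adjusted p = 0.117). The summed astrocyte markers stood at 8461, 5232, 3172, 4741 and 3887 CPM in those Rag2-/- libraries and 3281 to 4141 CPM in the controls. They were highest in pairs 1 and 2, as Thbs4 was, while the Rag2-/- library of pair 3 lay below every control. In edgeR 6 of the 9 markers had an unadjusted p under 0.05 for genotype in OPCs, with 0 called. Of all genes tested there, 4.02% had an unadjusted p under 0.05. The same Rag2-/- library of pair 1 held the most Thbs4, Chrdl1 (31.9 CPM), Sparcl1 and Gpc5 (124 CPM) of the Rag2-/- OPC libraries. It also held the most Thbs1 (16.2 CPM), Thbs3 (19.1 CPM) and Gpc6 (56.8 CPM), genes that include 2 not higher in astrocytes than in OPCs. Sparc was highest in the Rag2-/- OPCs of pair 3, and Thbs2 and Gpc4 in those of pair 6. The part of astrocyte RNA in these differences was not tested.

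**Figure D5:**
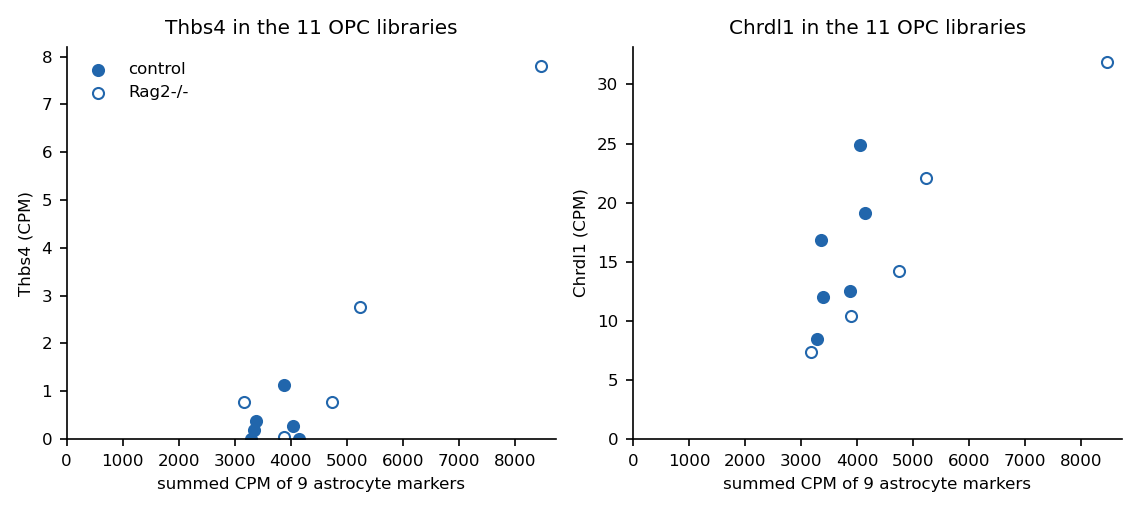
Thbs4 and Chrdl1 in the 11 OPC libraries, in CPM, against the summed CPM of the 9 astrocyte markers in the same library, filled for control and open for Rag2-/- mice. The Rag2-/- library of pair 1, at 8461 CPM of markers, is the highest in both genes.

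Whether the genotype difference itself differed between cell types was tested in a fit of all 43 libraries. Of the 10 members, edgeR called 0, beside 53 of 21368 genes (0.248%). Only Thbs4 of the 10 had an unadjusted p under 0.05 in edgeR (0.0214, adjusted p = 0.337). Of all genes tested, 2392 (11.2%) reached that, so 1 member of 10 is near the share of all genes. Without the filter on low counts it was called (edgeR adjusted p = 0.00552), in a fit that called 1011 of 39266 genes. With the filter and the mouse as a block, 5 genes were called. For Sparcl1, lower in Rag2-/- astrocytes and higher in Rag2-/- OPCs by CPM in every pair, the adjusted p was 0.933.

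By sex, which was modelled with genotype in each cell type, 0 of the 10 genes passed edgeR's test in any cell type, and DESeq2 called 0. Of all genes tested 0.0407% were called in astrocytes, 0.0296% in OPCs, 0.0467% in microglia and 0.0362% in oligodendrocytes. At an unadjusted p under 0.05 there were 2 members in astrocytes, where 6.73% of all genes tested reached it, and 0 in OPCs (4.3%), microglia (3.92%) and oligodendrocytes (8.23%). Female minus male, Thbs4 in astrocytes differed by -0.70 ± 0.257 on the log2 scale (edgeR adjusted p = 0.716) and Chrdl1 by 0.30 ± 0.135 (edgeR adjusted p = 0.726). Gpc4 and Chrdl1 are on the X chromosome, and Gpc4 in astrocytes differed by 0.06 ± 0.196.

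Of 22 receptors and binding partners of these proteins, 3 were called higher and 14 lower in control astrocytes than in OPCs, with a median log2 difference of -1.16, where 30.6% of all genes tested were called. Neuron markers moved the same way: the 8 markers, such as Snap25 and Rbfox3, summed to 151 to 189 CPM in control astrocytes, 418 to 824 in OPCs, 462 to 1709.6 in oligodendrocytes and 64.9 to 141 in microglia, and 5 of 8 were lower in astrocytes than in OPCs and 8 of 8 lower than in oligodendrocytes (median -1.23 and -3.37). The part of neuronal RNA in the partner values was not tested. The largest were Lrrtm4, a synaptic adhesion protein that binds glypicans (-3.91), and Nptx1, a neuronal pentraxin that clusters glutamate receptors (-2.19), against Ptprf, a receptor phosphatase (0.84), and Cd47, a thrombospondin receptor (0.66). Cacna2d1 was lower (-1.78), at 16.8 CPM in astrocytes and 81.5 in OPCs, and is named for its role after its values were seen. Against microglia, where 61% of all genes were called, 15 were higher and 5 lower, with Stab1, a scavenger receptor for Sparc (-6.09), and Cd36, a thrombospondin receptor (-5.62), at one end and Ptprf (5.41) at the other. Against oligodendrocytes, where 38.1% of all genes were called, 5 were higher and 11 lower, among them Nptx1 (-3.10), Stab1 (-3.06) and Ptprf (1.66).

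Related genes did not share the pattern of the members throughout. Of 12 relatives, glypicans, chordins and matrix proteins of the Sparc and thrombospondin families, 9 were tested, and their counts too stand beside 30.6% of all genes called against OPCs, 38.1% against oligodendrocytes and 61% against microglia. Against OPCs 2 were higher in control astrocytes, Spock3 (log2 difference 1.92) and the follistatin-like Fstl1 (1.58), and 4 lower, led by the thrombospondin Comp (-3.31) and Smoc1 (-1.95). Against microglia 6 were higher and 0 lower, led by Fstl1 (5.18) and Smoc1 (4.93), and against oligodendrocytes 1 was higher, Fstl1 (3.51), and 4 lower, led by Smoc2 (-5.28) and Spock3 (-2.35). Of 10 other glial synapse factors 9 were tested, and 3 were higher and 3 lower in astrocytes than in OPCs, 6 and 2 than in microglia and 4 and 3 than in oligodendrocytes. The cytokine Il33 (3.33) and the lipid carrier Apoe (1.89) led over OPCs, and Ndp (8.09) and Il33 (7.601) over microglia, while Tnf, a cytokine that microglia make, was lower against OPCs (-4.03), microglia (-9.56) and oligodendrocytes (-3.72). The 8 microglia markers were also lower in astrocytes than in OPCs (7 called, median -1.46) and oligodendrocytes (8 called, median -2.11), and their part in the Tnf values was not tested. Wnt7a (5.11) and Tgfb2 (4.01) led over oligodendrocytes.

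Of 10 genes of BMP signalling, the pathway that Chrdl1 restrains, 9 were tested, beside the same shares of all genes called (30.6%, 38.1% and 61%). The receptor Bmpr1b was higher in control astrocytes than in OPCs (log2 difference 3.56), oligodendrocytes (4.70) and microglia (7.88). The ligands Bmp4 (-2.95) and Bmp2 (-2.69) were lower than in OPCs, Bmp2 (-3.58) and Bmp4 (-2.39) lower than in oligodendrocytes, and Bmp7 (5.71) higher than in microglia, against which Bmp2 was lower (-3.32). In all, 2 were higher and 2 lower than in OPCs, 4 and 2 than in oligodendrocytes and 5 and 1 than in microglia. Of 8 immediate early genes that rise during cell dissociation, 3 were higher and 2 lower in astrocytes than in OPCs, 5 and 1 than in oligodendrocytes and 1 and 6 than in microglia. By genotype, edgeR called 0 genes of these 5 lists in any cell type, with 8 of 200 tests at an unadjusted p under 0.05. Of all genes tested, 2.87% to 4.02% in each cell type reached that. DESeq2 called 1 of the lists by genotype, beside 203 of 27050 genes tested in oligodendrocytes, 5 of 20956 in OPCs and 3 of 32759 in microglia. By sex edgeR called 0, with 13 of 200 at an unadjusted p under 0.05, beside 3.92% to 8.23% of all genes. DESeq2 called 2 by sex, beside 434 of 24319 genes in oligodendrocytes, 18 of 18374 in astrocytes, 13 of 19732 in OPCs and 11 of 17499 in microglia.

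Among 21368 genes, the 3 whose level followed each member most closely over the 43 libraries were found by Pearson's r of log2 normalized CPM. These libraries share cell type, lane and mice, so r is given as a description only. For Sparcl1 they were Plpp3, Atp1b2 and Igdcc4 (each 0.99), and for Sparc they were Msn, Sqstm1 and Tpm3 (each 0.98). Gpc5 went with Timp3, Fads2 and Slc38a3 (each 0.98), Gpc6 with Hapln1, Vegfa and Ntrk2 (each 0.98), Chrdl1 with Tspan7, Kcnn3 and Slc27a1 (each 0.97), and Gpc4 with Dipk1c (0.96), Tead1 and Lrp8 (each 0.95). Thbs4 went with Fgd6 (0.95), Ass1 and Aqp9 (each 0.94), and Thbs3 with Adcyap1r1 (0.93), Mro and Nckap5 (each 0.92). The low genes were followed less closely, Thbs1 by Dtx2, Rars1 (each 0.79) and Tes (0.78), and Thbs2 by Gpr89, Sertad4 (each 0.69) and Pnck (0.68).

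The coefficient of variation between libraries of a group, over members with a group mean of at least 1 CPM, had a median of 23.7% in control astrocytes, 28.01% in control OPCs, 49.6% in control oligodendrocytes and 27.5% in control microglia, where 5 members reached that level. The smallest spreads were those of Sparcl1 in Rag2-/- oligodendrocytes (5.02%), Gpc6 in Rag2-/- astrocytes (7.10%) and Sparcl1 in control OPCs (7.49%).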

How the data were processed

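Total RNA of immunopanned cells was amplified as cDNA and sequenced. The authors aligned reads to GRCm39 with STAR 2.7.8a and deposited raw counts of read pairs per gene from HTSeq, 1 table per library. Rows that name no gene held 33.5% to 52.0% of the read pairs and were left out. Every sample was grouped by its labels, and no 2 libraries agreed within sampling noise (smallest chi-square per gene 7.45 over 97 pairs).

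Counts were tested with edgeR 4.0.16 (quasi-likelihood test, TMM scaling, filterByExpr with a minimum count of 10 and total of 15, Benjamini-Hochberg adjustment over all genes tested, threshold 0.05) in R 4.3.3, within each cell type by genotype with sex, between cell types within each genotype with sex, and for the interaction in all 43 libraries. The steps were tested on simulated data. Standard errors are the log2 fold change divided by the root of the F statistic, and 95% intervals use the t distribution. Levels are CPM of gene counts and the floor was 3 counts per library.

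The alternatives were DESeq2 1.42.0, its size factors, no filter, total gene counts, mitochondrial genes left out, the littermate pair as a block, Rag2+/- controls alone, each library left out and, chosen after seeing the data, TMM scaling of the Sparc and marker shares and the Thbs2 mean without 1 library. The replicate number is a littermate pair, per the labels and methods, and libraries of a pair deviated together (mean r 0.0779 in astrocytes, 0.0676 in OPCs, 0.0787 in oligodendrocytes and 0.0546 in microglia, against -0.0150, -0.0134, -0.0260 and -0.0110 for different pairs). Named genes were all 10 members, the 3 genes most like each, and from each list the called genes with the 2 largest changes in either direction. One gene that this rule names is not reported here. The members and lists were chosen with earlier results of these data known. Gene bounds are from GENCODE M39, which held 54749 of 55416 gene IDs. In Python 3.11.15, numpy 2.4.6, pandas 2.3.3 and matplotlib 3.10.9 were used.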

Additional observations from a re-analysis of the deposited data

Results flagged for a closer look

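Over 80 groups of 4 to 6 libraries, 14 values of single libraries lay far from the rest of their group by Dixon's criterion. Chance meets that criterion in about 1 in 20 groups where values are normally distributed. Levels that rest on a few counts are not, so that rate is no measure of the 14. Both Thbs4 flags in oligodendrocytes, for example, come from groups where 1 library alone held any count. Sparc reached 398 CPM in the Rag2-/- OPCs of pair 3 (group median 191). Thbs1 reached 14.4 CPM in the Rag2-/- astrocytes of pair 1 (median 2.83), 3.11 in the control oligodendrocytes of pair 3 (0.242) and 14.7 in the Rag2-/- microglia of pair 2 (11.6). Thbs2 reached 4.50 CPM in the Rag2-/- OPCs of pair 6 (2.17), 1.61 in the Rag2-/- oligodendrocytes of pair 1 (0.463) and 3.71 in the Rag2-/- microglia of pair 6 (0.734). Thbs4 reached 1.14 CPM in the control OPCs of pair 1 (0.232), 0.316 in the control oligodendrocytes of pair 1 and 0.808 in the Rag2-/- oligodendrocytes of pair 6, where the median was 0 in both. Gpc4 reached 2.44 CPM in the Rag2-/- microglia of pair 6 (0.378) and Chrdl1 2.20 in those of pair 5 (0.390). Gpc5 was lowest in the astrocytes of pair 1 in both genotypes, at 90.8 CPM in the control (142) and 85.0 in the Rag2-/- mouse (125). Sparcl1 was lower in the Rag2-/- mouse of every pair in astrocytes and higher in every pair in OPCs by CPM, and the test of that difference in edgeR gave an adjusted p of 0.933.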

How the results depend on the processing

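Of the tests of members between cell types, 674 under settings other than a left-out library kept direction and side of the threshold, 25 gained a call, 13 lost one and 8 turned. With 1 library left out the numbers were 2471, 30, 61 and 18. The members called between OPCs and oligodendrocytes of Rag2-/- mice numbered 8 without a filter (gaining Sparc, Thbs1, Thbs4 and Gpc4) and 8 with total gene counts (gaining Thbs1, Thbs3, Thbs4 and Gpc4), against 4, and the interaction called 1 without a filter, against 0. The block changed no call of a member other than the 3 named above. With a library left out, the members called ranged in control and Rag2-/- mice from 4 to 7 and 3 to 5 for astrocytes against OPCs, 6 to 8 and 6 to 7 against oligodendrocytes and 9 and 8 to 9 against microglia, from 5 to 7 and 3 to 6 for OPCs against oligodendrocytes, 8 and 8 for OPCs against microglia and 9 and 6 to 8 for oligodendrocytes against microglia, and were 0 for genotype, sex and the interaction. Total gene counts moved the median log2 difference of all genes from -0.05 to -0.52 for control astrocytes against OPCs, 0.04 to 0.62 against oligodendrocytes and 0.09 to -0.15 against microglia, and from 0.15 to 1.21 for OPCs against oligodendrocytes, 0.08 to 0.31 for OPCs and -0.11 to -0.93 for oligodendrocytes against microglia. Genes called between OPCs and oligodendrocytes then numbered 10930 in control mice (main 5351) and 10889 in Rag2-/- mice (5402). By genotype DESeq2 called 5 genes in OPCs, 3 in microglia and 203 in oligodendrocytes, and no filter gave 90, 9 and 14, and 30 in astrocytes. The interaction called 1011 genes without a filter and 5 with the block (main 53). By sex DESeq2 called 13, 18, 11 and 434 genes in OPCs, astrocytes, microglia and oligodendrocytes, no filter gave 72, 118, 25 and 99, and Rag2+/- controls alone 10 in astrocytes. Counts by sex with the pair block are not given, because its sex estimate rests on the sex-mismatched littermate pair alone.

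With total gene counts the direction turned for Sparc in OPCs against oligodendrocytes (0.31 in control and 0.38 in Rag2-/- mice), astrocytes against OPCs (-0.30 and -0.31) and astrocytes against oligodendrocytes (0.0059 and 0.075), for Thbs2 in Rag2-/- oligodendrocytes against microglia (-0.27), Thbs3 in Rag2-/- astrocytes against OPCs (-0.36), and by genotype for Chrdl1 in astrocytes (-0.074), Sparcl1 in microglia (-0.0036) and Thbs3 in OPCs (-0.013). With the littermate pair as a block it turned for Chrdl1 by sex in OPCs (-0.80) and oligodendrocytes (1.33), estimates that rest on the sex-mismatched pair alone. With the same block it turned by genotype for Gpc4 in OPCs (-0.073), Gpc5 in OPCs (0.11) and microglia (0.47), Gpc6 in oligodendrocytes (0.053), Sparc in astrocytes (-0.064), Sparcl1 in oligodendrocytes (0.19) and Thbs3 in microglia (-0.47). With Rag2+/- controls alone it turned by genotype for Gpc5 in microglia (1.24), Gpc6 in OPCs (-0.021) and astrocytes (0.10), Sparc in OPCs (-0.053) and astrocytes (-0.023) and Sparcl1 in oligodendrocytes (0.19), and without a filter for Gpc5 in OPCs (0.0031). None of these genotype and sex differences was called. The causes were not tested.

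Leaving out 1 library turned the direction of further uncalled values, which ranged by genotype from -0.19 to 0.47 for Chrdl1 in OPCs and -0.024 to 0.13 in astrocytes, -0.22 to 0.025 for Gpc4 in astrocytes and -2.35 to 0.19 in oligodendrocytes, -0.11 to 0.058 for Gpc5 in OPCs and -0.39 to 0.59 in microglia, -0.96 to 0.34 for Gpc6 in oligodendrocytes, -0.15 to 0.29 for Sparc in OPCs, -0.12 to 0.041 in microglia and -0.34 to 0.20 in oligodendrocytes, -0.068 to 0.14 for Sparcl1 in microglia and -0.24 to 0.19 in oligodendrocytes, -0.13 to 0.046 for Thbs1 in microglia and -0.76 to 2.57 in oligodendrocytes, and -0.039 to 0.18 for Thbs3 in OPCs and -0.22 to 0.49 in microglia. By sex they ranged from -0.40 to 0.30 for Chrdl1 in OPCs and -1.10 to 0.11 in oligodendrocytes, and for Gpc4 from -0.081 to 0.22 in OPCs, -0.095 to 0.15 in astrocytes and -2.78 to 0.15 in oligodendrocytes. Between cell types they ranged from -0.028 to 1.53 for Thbs1 in Rag2-/- astrocytes against oligodendrocytes, for Thbs2 in Rag2-/- mice from -0.77 to 0.48 in astrocytes against microglia, -1.49 to 0.24 in astrocytes against oligodendrocytes and -0.35 to 1.16 in oligodendrocytes against microglia, for Thbs3 in astrocytes against OPCs from -0.047 to 0.20 in Rag2-/- and -0.27 to 0.063 in control mice, and for Thbs4 from -0.40 to 1.42 in control OPCs against microglia, -0.066 to 4.48 against oligodendrocytes, and -3.97 to 0.57 in control and -3.14 to 2.97 in Rag2-/- oligodendrocytes against microglia. Members at a few counts per library, Thbs4 outside astrocytes and Thbs2 throughout, are the least precise.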
